A study of Mus musculus with 16 samples.

Results

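Genes that drive DNA replication and cell division were followed in cultured mouse neurons that had received 1 of 3 peptides. The set holds 51 genes chosen by symbol from the 45724 genes measured: 17 of DNA replication, 25 of mitosis, 6 of G1 cyclins and their kinases, and 3 transcription factors of the cycle. Each symbol was found once, and each gene passed the filter on low values in every comparison. The cells were primary cultured neurons from C57BL/6 brain at postnatal day 0. Control cultures received DPBS, a buffered saline, and the other groups NP24, Tβ10 or Tβ4, peptides that the study assigns to the subcommissural organ, a gland of the brain ventricles. Each group had 4 libraries of total RNA. Doses and exposure times are not given in the sources used here, and the labels do not say whether the libraries of a group are separate cultures, so each p-value measures the spread between these libraries only.

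Mature neurons do not divide, whereas neural progenitors and glia in a culture can. A cell that commits to division in G1 uses cyclin D with CDK4 or CDK6, and E2F factors then switch on the genes that license and copy DNA. MCM proteins form the replicative helicase, PCNA clamps the polymerase to DNA, and ribonucleotide reductase and thymidylate synthase supply nucleotides. Mitotic genes follow later in the cycle, driven in part by B-MYB (Mybl2) and FOXM1, and include the cyclin B kinase, the spindle checkpoint, condensins and the kinesins of chromosome movement. In bulk RNA, fewer cells of a type and less RNA per cell cannot be told apart.

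The replication and mitotic genes also differed in the letters of their promoters, which is shown here because the contrast of these divisions is followed through all results. RefSeq windows on GRCm38.p6, reaching 250 bases before to 50 after a start site, were matched for 41 of the 51 genes by symbol. For these genes the window nearest the GENCODE gene start was taken. For all other genes it was the first one listed, so the 2 sets of windows were not chosen alike. A CHR-type element, TTTGAA or TTCGAA on either strand, stood in 16 of 21 mitotic windows (76.2%) and in 4 of 15 replication windows (26.7%), beside 19.4% of 27018 genes. An E2F-type element, TTTGGCGC, TTTGCCGC, TTTCGCGC or TTTCCCGC on either strand, stood in 5 of 15 replication windows (33.3%) and in 1 of 21 mitotic windows (4.76%), beside 2.32% of all genes. CCAAT, on either strand, stood in 12 replication and 18 mitotic windows, or 80.0% and 85.7%, beside 37.9% of all genes. The lines below hold the 250 bases before the start site, 5′ to 3′ on the gene's strand, for a pair of mitotic genes with CHR letters and a pair of replication genes with E2F letters. Capitals mark CHR, E2F and CCAAT matches, and overlapping E2F matches run together. Mki67 lies at chr7:135716380-135716629 (minus strand), Top2a at chr11:99024190-99024439 (minus), Mcm5 at chr8:75109259-75109508 (plus) and Mcm6 at chr1:128359706-128359955 (minus).
Mki67: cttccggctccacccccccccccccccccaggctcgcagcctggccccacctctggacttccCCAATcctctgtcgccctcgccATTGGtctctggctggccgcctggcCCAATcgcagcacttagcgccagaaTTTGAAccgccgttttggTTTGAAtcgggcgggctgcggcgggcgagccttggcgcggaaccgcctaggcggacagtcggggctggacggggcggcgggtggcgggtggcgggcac
Top2a: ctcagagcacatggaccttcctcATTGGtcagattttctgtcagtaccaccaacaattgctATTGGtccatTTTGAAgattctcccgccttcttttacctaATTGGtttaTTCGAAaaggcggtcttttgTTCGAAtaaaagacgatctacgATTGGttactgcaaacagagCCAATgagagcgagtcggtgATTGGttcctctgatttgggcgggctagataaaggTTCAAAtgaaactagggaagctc
Mcm5: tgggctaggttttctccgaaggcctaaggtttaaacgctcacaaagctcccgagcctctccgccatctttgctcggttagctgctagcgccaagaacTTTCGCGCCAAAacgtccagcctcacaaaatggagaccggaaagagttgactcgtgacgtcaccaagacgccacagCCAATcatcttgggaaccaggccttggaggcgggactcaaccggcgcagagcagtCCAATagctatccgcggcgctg
Mcm6: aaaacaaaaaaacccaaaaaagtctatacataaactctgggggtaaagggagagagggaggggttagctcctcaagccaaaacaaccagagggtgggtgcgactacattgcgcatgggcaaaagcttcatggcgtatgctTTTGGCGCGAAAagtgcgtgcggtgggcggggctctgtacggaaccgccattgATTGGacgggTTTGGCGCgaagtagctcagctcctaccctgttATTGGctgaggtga
These matches describe letters only, and whether a factor binds there was not measured.

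Values are the authors' normalized counts, gene read counts divided by a size factor per library. The 16 libraries held between 11642242 and 38254320 gene reads, and the lowest number of reads behind any of the 51 genes in a library was 10, for Cdc6. Mitochondrial ribosomal RNA took 9.32% to 14.2% of reads in control libraries, 5.98% to 8.12% with NP24, 4.76% to 9.53% with Tβ10 and 8.25% to 24.3% with Tβ4. Markers of neurons were read in every library, with summed levels of 61415 to 95750 normalized counts over 8 genes, so RNA of the labelled cell type was present. Exons of 18 of the 51 genes overlap another gene, and as no source states that strand was used in counting, shared reads cannot be assigned. Over 20% of exon bases are shared by Gins2 with Gse1, Chaf1a with Ubxn6, Ccnd1 with LTO1 and Ube2c with Tnnc2, and the values of these 4 genes are uncertain.

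Per kilobase of exon, the 16-library mean level was highest for Ccnd2 (434 normalized counts per kilobase), which encodes cyclin D2, and for its kinase partner Cdk4 (329). Mki67, the proliferation marker Ki-67, followed at 228. Smc4, a condensin subunit, stood at 158, Top2a, the topoisomerase that untangles sister chromatids, at 152, and the helicase subunit Mcm7 at 139. The lowest levels per kilobase were those of Cdk2 (11.6), a kinase of S phase entry, and Cdc6 (11.9), which loads the helicase. The median level per kilobase was 58.7 over replication genes and 56.8 over mitotic genes.

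With Tβ4, most of these genes were higher than in the other 3 groups, in 3 of the 4 libraries, and the 4 that passed in limma were mitotic. Against the mean of the control, NP24 and Tβ10 groups, 50 of 51 genes had a log2 difference above 0, with a median of 0.40 where the median over all 24232 genes tested was 0.01. Mki67, Top2a, Smc4 and Cenpf rose, 4 of 51 genes at an adjusted p under 0.05 (limma, Benjamini-Hochberg over all genes), where 1.62% of all genes were called. No gene of the set fell. In the same comparison edgeR called 8 of the 51, of which 5 were mitotic and 2 replication genes. DESeq2 called 11, of which 5 were mitotic and 3 replication genes. Both also called more of all genes: edgeR 612 higher and 83 lower, and DESeq2 917 and 243, where limma called 309 and 84. Tβ4 libraries 1, 3 and 4 carried the difference, and library 2 lay among the other groups for most genes.

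Mki67 stood at 1566, 2053, 1838 and 2224 normalized counts in control libraries 1 to 4, at 2119, 2242, 2190.2 and 1904 with NP24, at 1755, 2481, 2011 and 2285 with Tβ10, and at 3036, 2581, 3244 and 3161 with Tβ4. All 4 Tβ4 libraries lay above the other 12. The log2 difference from the other groups was 0.55 (SE 0.11, adjusted p = 0.00826), or 1.47-fold.

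Top2a stood at 929.7, 1142, 1148 and 1322 in the controls, at 1330.4, 1218, 1328 and 1181 with NP24, at 1002, 1551, 1279 and 1209 with Tβ10, and at 2008, 1224, 2168 and 1945 with Tβ4. Tβ4 library 2 lay inside the range of each other group, and the other 3 Tβ4 libraries lay above all 12. Its log2 difference was 0.57 (SE 0.13, adjusted p = 0.0287).

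Cenpf, a kinetochore protein made in G2 and mitosis, stood at 927, 1127, 989 and 1471 in the controls, at 1247, 1435, 1177 and 884 with NP24, at 877, 1344, 1089.9 and 1199 with Tβ10, and at 1949.8, 1334, 1839 and 1679.8 with Tβ4. Again only Tβ4 library 2 overlapped the other groups. The log2 difference was 0.57 (SE 0.14, adjusted p = 0.0364).

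Smc4 stood at 779.7, 623, 755 and 886 in the controls, at 658, 903, 726 and 679 with NP24, at 729, 868, 773 and 542 with Tβ10, and at 1173, 890.2, 1122 and 1050.5 with Tβ4. Tβ4 library 2 was above every control and every Tβ10 library but below 1 NP24 library. The log2 difference was 0.52 (SE 0.12, adjusted p = 0.0349).

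**Figure D1:**
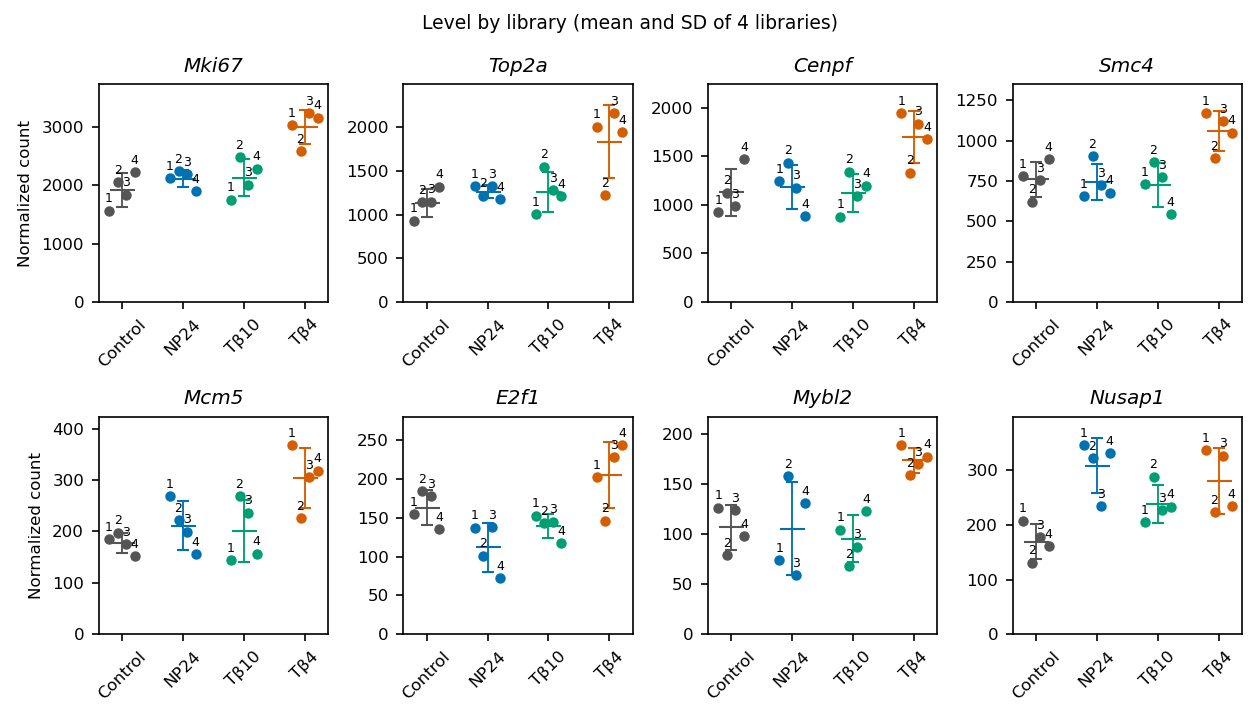
Normalized counts of 8 genes by library, with the mean and SD of 4 libraries per group; the number beside each point is the library's replicate number, and each panel's axis starts at 0. Mki67 and Mybl2 have all 4 Tβ4 points above the other 12, while Tβ4 library 2 lies among the other groups for Top2a, Cenpf and E2f1.

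Of the transcription factors, Mybl2 was the other gene of the set whose 4 Tβ4 libraries all lay above the remaining 12; this held for 0.545% of all genes tested. It stood at 126, 78.6, 124 and 98.2 normalized counts in the controls, at 74.1, 158, 59.1 and 131 with NP24, at 105, 67.7, 87.4 and 123 with Tβ10, and at 189, 159, 169.7 and 177 with Tβ4. The lowest Tβ4 library and the highest NP24 library were almost level. Its log2 difference of 0.81 (SE 0.23) did not pass in limma (adjusted p = 0.0812).

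E2f1, which activates genes of S phase entry, stood at 155, 184, 178 and 136 in the controls, at 137, 101, 138 and 72.04 with NP24, at 153, 143, 145 and 118 with Tβ10, and at 202, 146, 228 and 244 with Tβ4. Each Tβ4 library was above each NP24 library, while the ranges of Tβ4 and control overlapped. Foxm1 stood at 302, 329, 317 and 398 in the controls, at 314, 304, 259 and 200.1 with NP24, at 212, 346, 274 and 344 with Tβ10, and at 399, 297, 448 and 433 with Tβ4. For Foxm1 the Tβ4 libraries 1, 3 and 4 were the highest of all 16, and its difference from the other groups was 0.40 (adjusted p = 0.224 in limma).

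Against NP24 alone, in the fit of all 16 libraries, Mki67 and E2f1 were higher with Tβ4, 2 of 51 genes beside 2.09% of all genes. Their log2 differences were 0.50 (SE 0.13, adjusted p = 0.0436) and 0.89 (SE 0.23, adjusted p = 0.0441). Neither passed when only the 8 libraries concerned were fitted (adjusted p = 0.0892 and 0.171). Per kilobase, E2f1 averaged 51.8 normalized counts in controls, 35.5 with NP24 and 65.1 with Tβ4. Its difference thus held a level below control with NP24 as well as one above control with Tβ4. Mki67 averaged 191, 210 and 299 in the same order. Against Tβ10, no gene of the set passed, beside 1.35% of all genes, with 25 of 51 at an unadjusted p under 0.05. There edgeR called 0 of the 51, beside 258 higher and 59 lower over all genes. DESeq2 called 5, beside 609 higher and 204 lower. Mki67 was 0.50 higher (SE 0.13, adjusted p = 0.0568) and Smc4 0.55 higher (SE 0.15, adjusted p = 0.0748). These comparisons share the Tβ4 libraries.

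Against the control alone, no gene of the set and no gene of the 22205 tested passed in limma (0.0%), and edgeR called none. DESeq2 called 2 of the 51, Mki67 and Mcm5, among 59 higher and 23 lower genes in all. At an unadjusted p under 0.05 limma gave 23 of the 51 and 1568 of all genes. In this comparison 47 of 51 genes had a log2 difference above 0, beside 49.4% of all genes, and their median was 0.43 where that of all genes was -0.00. The smallest p-values were those of Mki67 (log2 difference 0.65, SE 0.14, adjusted p = 0.442) and Mcm5 (0.76, SE 0.19, adjusted p = 0.458). In the authors' deposited table for this comparison, 2 of the 51 genes passed at an adjusted p under 0.05, beside 0.569% of all genes. The authors' deposited table gives them as Mki67 (log2 fold change 0.65, adjusted p = 0.00900) and Top2a (0.69, adjusted p = 0.0254).

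**Figure D2:**
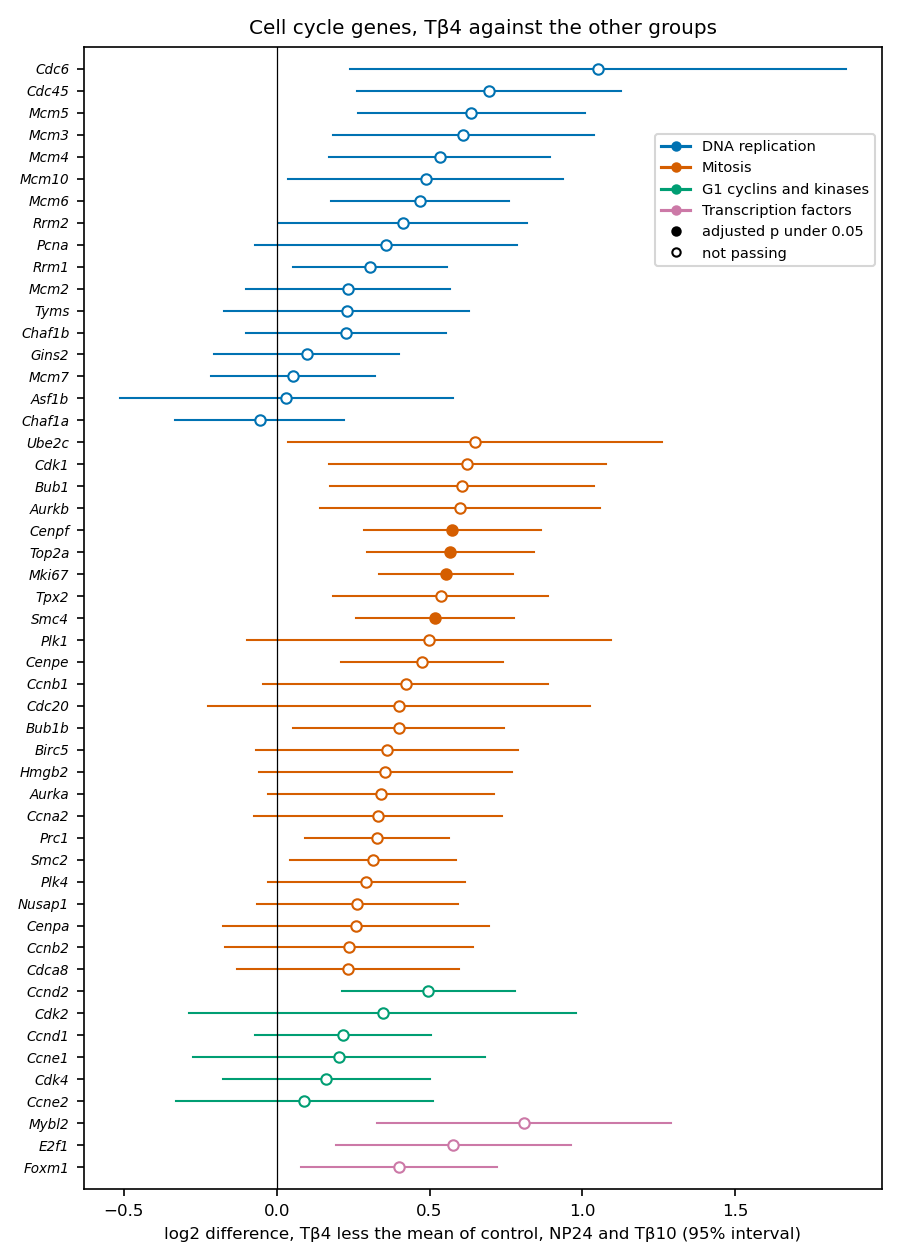
Log2 difference of each gene, Tβ4 less the mean of the control, NP24 and Tβ10 groups, with its 95% interval from the fit of 16 libraries; filled points passed the adjusted threshold and open points did not. The points run from -0.06 for Chaf1a to 1.05 for Cdc6, and the 4 filled points are all mitotic genes.

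Among replication genes, 14 of 17 had a difference above 0 against control and none passed. Mcm5, a helicase subunit, stood at 185, 198, 176 and 152 normalized counts in the controls, at 269, 222, 199 and 156 with NP24, at 144, 268, 237 and 157 with Tβ10, and at 368, 226, 306 and 318 with Tβ4. All 4 Tβ4 libraries were above all controls, and library 2 was inside the NP24 and Tβ10 ranges. Cdc6 and Cdc45, a component of the active helicase, had the widest differences from control, 0.81 and 0.87, with adjusted p of 0.671 and 0.483 in limma.

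No helicase subunit passed in limma with all libraries fitted. Against the other 3 groups the log2 differences were 0.64 for Mcm5, 0.61 for Mcm3, 0.53 for Mcm4, 0.47 for Mcm6, 0.23 for Mcm2 and 0.05 for Mcm7, with 95% intervals of -0.10 to 0.57 for Mcm2 and -0.21 to 0.32 for Mcm7. Mcm7 stood at 731, 647, 523 and 569 in the controls, at 613, 650.2, 606 and 535 with NP24, at 487, 649, 635 and 657 with Tβ10, and at 777, 462, 720.0 and 602 with Tβ4, so that its groups overlapped throughout. With library size scaling its difference was -0.08, below 0. Differences between subunits were not tested.

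Mcm2 was the gene with the smallest p among the replication genes in the NP24 and Tβ10 comparisons. It stood at 380.4, 329.6, 456 and 472 in the controls, at 329, 284, 256 and 240.1 with NP24, at 197, 361, 279 and 297 with Tβ10, and at 444, 262, 425 and 375 with Tβ4. Every NP24 library lay below every control, by a narrow gap at the nearest pair. The log2 differences from control were -0.56 for NP24 (SE 0.16, adjusted p = 0.0630 in limma) and -0.55 for Tβ10 (SE 0.19, adjusted p = 0.238), and those comparisons share their controls. In DESeq2 the fall with NP24 passed (adjusted p = 0.0202), where 566 of all genes were called higher and 612 lower.

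Beside Mcm7, a few replication genes lay close to the other groups with Tβ4. Chaf1a, the large subunit of the chromatin assembly factor, was at -0.06, Asf1b, a histone chaperone, at 0.03 and Gins2, a helicase cofactor, at 0.10. Gins2 stood at 473, 689, 563 and 754 in the controls, at 558, 473, 449.9 and 411 with NP24, at 373, 527, 468 and 602 with Tβ10, and at 622, 426, 677 and 528 with Tβ4. Its groups overlapped, and 67.3% of its exon bases lie within Gse1. With library size scaling its difference was -0.04.

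All 25 mitotic genes had a difference above 0 between Tβ4 and control, and all 25 against the 3 other groups together. Behind the 4 genes that rose, Cenpe, a kinesin at the kinetochore, was 0.48 higher, Tpx2, which nucleates spindle microtubules, 0.54, Ube2c, which tags mitotic cyclins for destruction, 0.65, Cdk1, the mitotic kinase, 0.62, Bub1, a checkpoint kinase, 0.61, and Aurkb, the chromosomal passenger kinase, 0.60. Cdca8 (0.23), Ccnb2 (0.24) and Cenpa (0.26) had the lowest differences of the division. None of these 9 genes passed; they were picked after their values were seen, to show the range of the division.

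As a median over genes, the divisions were close. Against control the median log2 difference was 0.43 for replication and 0.48 for mitosis with Tβ4, -0.03 and 0.07 with NP24, and -0.01 and 0.07 with Tβ10. Against the other groups together it was 0.36 and 0.40. Within each library, the mean log2 level of mitotic genes less that of replication genes was 0.07 ± 0.10 in controls (SD, n = 4), 0.22 ± 0.07 with NP24, 0.12 ± 0.04 with Tβ10 and 0.19 ± 0.02 with Tβ4. Control library 4, at 0.21, lay inside the range of the Tβ4 libraries, 0.17 to 0.22. Leaving out the 4 genes that share over 20% of their exon bases, those means were 0.31, 0.46, 0.33 and 0.37, and the medians against the other groups were 0.41 for replication and 0.40 for mitosis, so that the order of the divisions turned. Whether the divisions differ was not tested.

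**Figure D3:**
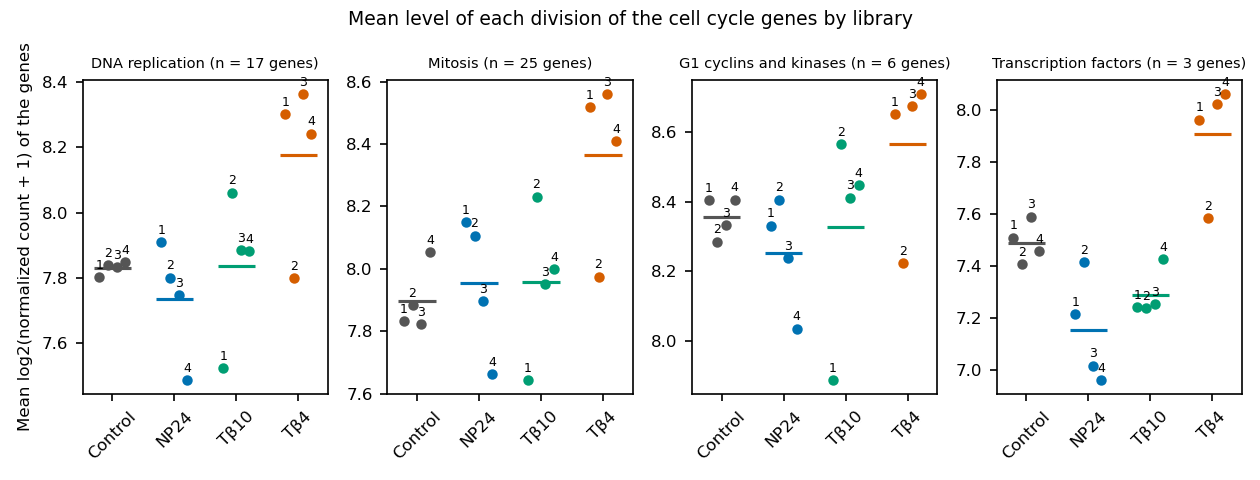
Mean log2(normalized count + 1) of the genes of each division in each library, numbered by replicate, with the group mean as a line; each panel has its own axis range. In replication and mitosis alike, Tβ4 libraries 1, 3 and 4 are the highest 3 of 16 and Tβ4 library 2 lies within the other groups.

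Among G1 genes, Ccnd2 was the nearest to the threshold. It stood at 3647, 3959, 3673 and 4491 normalized counts in the controls, at 4135, 3456, 3403 and 3088 with NP24, at 2606, 4454, 3555 and 3827 with Tβ10, and at 6077, 3593, 6019 and 5360.1 with Tβ4. The 3 high Tβ4 libraries exceeded all others. Its difference from the other groups was 0.50 (SE 0.14, adjusted p = 0.0674 in limma).

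Cdk4 stood at 1335, 1033, 1019 and 1139.8 in the controls, at 1039, 1041, 880.0 and 912 with NP24, at 689, 1136, 968 and 1169.9 with Tβ10, and at 1356, 668, 1486 and 1252 with Tβ4. Its Tβ4 libraries held both the highest and the lowest of the 16 values. The difference was 0.16, with a 95% interval of -0.17 to 0.50.

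The Tβ4 libraries differed among themselves. Tβ4 libraries 1, 3 and 4 exceeded all 12 libraries of the other groups for 26, 35 and 24 of the 51 genes, and library 2 for 3. Over all genes tested, in that order, the shares were 19.2%, 9.47%, 8.89% and 17.03%. The mean log2 level of the 51 genes was 8.43, 7.92, 8.48 and 8.37 in Tβ4 libraries 1 to 4, beside 7.87 to 7.99 in controls, 7.61 to 8.04 with NP24 and 7.61 to 8.16 with Tβ10.

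Without Tβ4 library 2, limma called 12 of the 51 genes higher than control (1.63% of all genes), 14 higher than NP24 (5.8%), 8 higher than Tβ10 (4.38%) and 18 higher than the 3 groups together (5.5%). The 18 were 10 mitotic genes, 6 replication genes (Mcm3, Mcm4, Mcm5, Mcm6, Rrm1 and Rrm2), Ccnd2 and E2f1. Without Tβ4 library 1 or 4, none of the 51 genes was called in any of these comparisons. Without library 3 only 1 of the 51 was called, in the comparison with the 3 groups together. In that comparison, calls over all genes were 33 higher and 9 lower without library 1. They were 361 and 144 without library 3, and 96 and 16 without library 4.

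**Figure D4:**
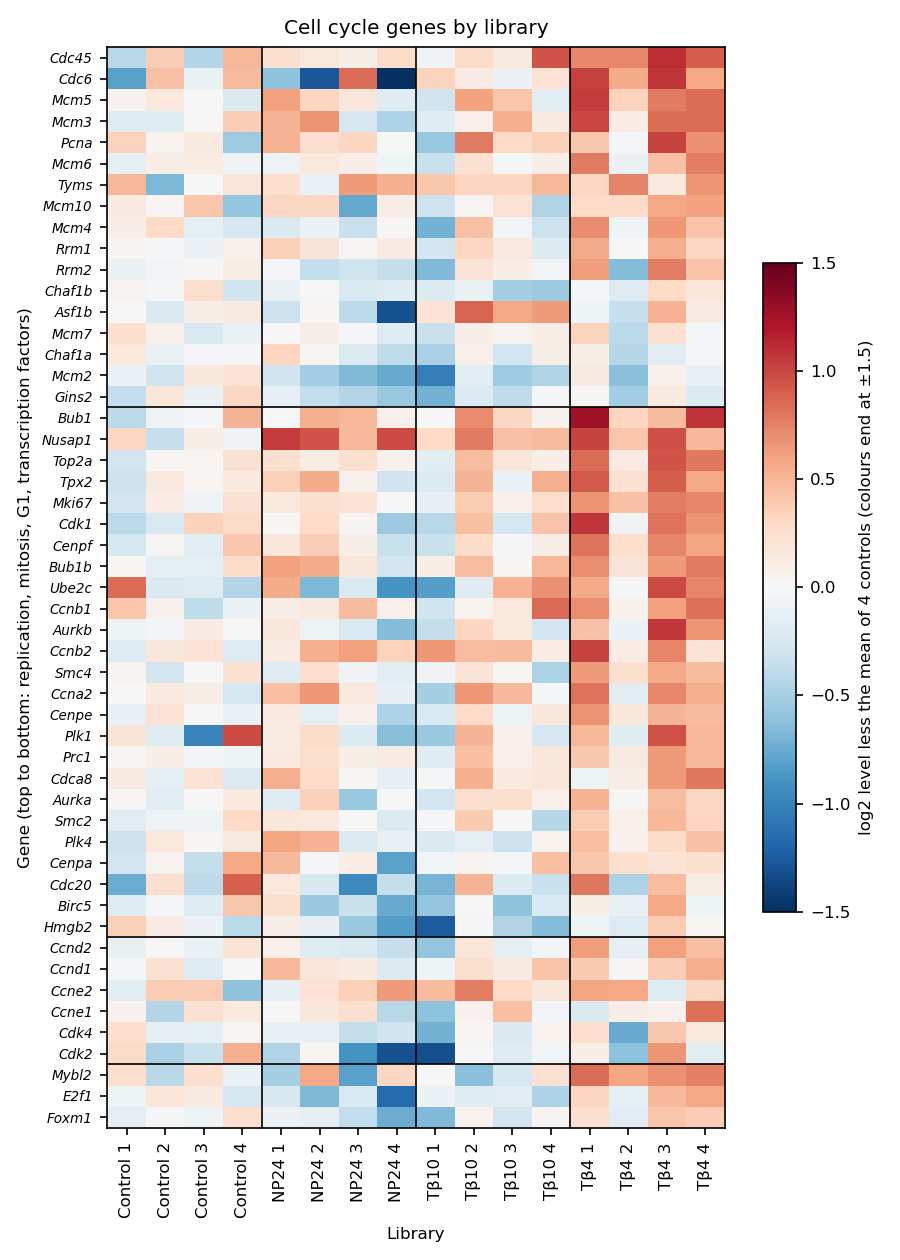
Log2 level of each of the 51 genes in each library less the mean of the 4 controls, ordered by division and then by the Tβ4 mean; colours end at 1.5 in either direction. Most cells of the Tβ4 library 1, 3 and 4 columns are red in replication and mitosis, and the column of Tβ4 library 2 resembles those of the other groups.

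As a median over the set, NP24 and Tβ10 lay near the control. With NP24, 23 of 51 genes were above 0 and the median was -0.03. With Tβ10, 26 were above 0 and the median was 0.00. Of the 3 transcription factors, 0 were above 0 with either peptide, beside 49.5% and 49.3% of all genes. Their medians were -0.33 with NP24 and -0.21 with Tβ10, and none was called. Nusap1, a microtubule-binding protein of the spindle, rose with NP24, the only gene of the set to pass in limma, beside 2.63% of all genes. No gene passed with Tβ10, beside 0.633%, where 3 of 51 had an unadjusted p under 0.05 and neither edgeR nor DESeq2 called one.

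Nusap1 stood at 208, 131, 177 and 162 normalized counts in the controls, at 346, 323, 234 and 332 with NP24, at 205, 288, 227 and 234 with Tβ10, and at 338, 224, 327 and 234 with Tβ4. All NP24 and all Tβ4 libraries were above all controls, and Tβ10 library 1 was below control library 1. The log2 difference from control was 0.87 with NP24 (SE 0.19, adjusted p = 0.0174 in limma), 0.50 with Tβ10 (SE 0.19, adjusted p = 0.315) and 0.72 with Tβ4 (SE 0.21, adjusted p = 0.458). The NP24 call was lost without control library 2 or NP24 library 1.

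Other genes of the later phases were also higher with Tβ4. Of 38 checkpoint and cytokinesis genes, 38 were above 0 with Tβ4 against the other 3 groups, with a median of 0.44, and 4 rose, beside 50.9% above 0 and 1.62% called over all genes. These were Kif4 (0.69, adjusted p = 0.0143) and Kif11 (0.54, adjusted p = 0.0387), kinesins of the spindle, Ndc80 (0.77, adjusted p = 0.0292), of the kinetochore, and Aspm (0.65, adjusted p = 0.0447), of the spindle pole. Of 38 origin and fork genes, 29 were above 0, with a median of 0.20. In that list Pole (0.49, adjusted p = 0.0365), the leading-strand polymerase, and Ticrr (0.72, adjusted p = 0.0492), an initiation factor, rose, 2 of 38 beside the same 1.62%.

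Of 25 tested CDK inhibitors, pocket proteins and their partners, 15 were above 0 with NP24, with a median of 0.05, and 1 rose and 3 fell, beside 2.63% called over all genes. With Tβ10, 13 of 25 were above 0, with a median of 0.02, and 3 fell, beside 0.633% called over all genes. Cdkn1a (p21) fell with NP24 by 1.01 on the log2 scale (adjusted p = 0.00466) and with Tβ10 by 0.92 (adjusted p = 0.0471). Btg2, an antiproliferative gene, fell by 0.85 with NP24 (adjusted p = 0.00272) and by 0.98 with Tβ10 (adjusted p = 0.00638), and Gadd45g, a stress-induced inhibitor, by 1.02 (adjusted p = 0.00710) and 0.92 (adjusted p = 0.0343). E2f3 rose with NP24 by 0.45 (adjusted p = 0.0233). These comparisons share their controls, and in both the 4 tested fibroblast markers also fell and mitochondrial ribosomal RNA was lower; the part of either in these differences was not tested. With Tβ4, Cdkn1a averaged 539.6 ± 140 normalized counts beside 510.1 ± 186 in controls (SD, n = 4). Against the other 3 groups together, 21 of 26 tested genes of the list were above 0 with Tβ4 and 4 were called higher. Over all genes, 50.9% were above 0 and 1.62% were called. The 4 were Cdk6 (0.76, adjusted p = 0.00367), E2f7 (0.56, adjusted p = 0.0238), Cdkn1a (0.74, adjusted p = 0.0300) and Btg2 (0.62, adjusted p = 0.0308). Cdkn1a and Btg2 fell with NP24 and Tβ10, 2 of those 3 groups. Their differences alone thus do not show a rise over control. Against control alone, 19 of 25 tested genes of the list were above 0 with Tβ4 (median 0.09), and none passed.

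Markers of other cells moved with the Tβ4 libraries. Of 11 markers of neural progenitors and radial glia, 10 were above 0 with Tβ4 against the other groups, and the lowest was at -0.70. In all 2 were called higher, Notch1 (0.54, adjusted p = 0.0390) and Vim (0.85, adjusted p = 0.0412). Over all genes, 50.9% were above 0 and 1.62% were called. Against control alone, 9 of 11 were above 0 with Tβ4 (median 0.34) and none was called. With NP24 against control, 3 were above 0 (median -0.28), and with Tβ10 4 were (median -0.26). The differences from the 3 groups thus also hold levels below control with NP24 and Tβ10. The summed level of the progenitor markers was 11936 to 14105 normalized counts in controls, 10577 to 13291 with NP24 and 9026 to 14247 with Tβ10. In Tβ4 libraries 1 to 4 it was 18970.0, 11646, 17325 and 16959. The libraries high in cell cycle genes were thus high in progenitor markers. This was not particular to progenitors: Tβ4 libraries 1, 3 and 4 also exceeded every library of the other groups in the fibroblast, microglia and astrocyte sums.

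The other marker lists stand beside the same shares over all genes, 50.9% above 0 and 1.62% called. The 4 tested fibroblast markers were all called higher. Against control alone all 4 were above 0 and none was called, as for every gene tested there. The summed level of that list was 389 to 579 in controls, 138 to 191 with NP24, 132 to 186 with Tβ10 and 590.4 to 1941 with Tβ4. Lum was at 0 in 9 libraries and Dcn in 1. All 8 microglia markers were above 0, with 2 called (C1qa and Lyz2). Their sums were 1559 to 2269 in Tβ4 libraries. Control sums were 1533 to 1806, those of NP24 1433 to 1546 and those of Tβ10 1292 to 1742. Tyrobp was at 0 in 2 libraries and Aif1 and C1qa in 1 each. In such sums the highest markers weigh most. Against control, 1 of 5 tested microglia markers was above 0 with NP24 (median -1.32), and 1 was called lower. For Tβ10, 1 of 6 was above 0 (median -1.30), and 1 was called lower. For Tβ4, all 7 tested were above 0 against control (median 0.52) and none was called. The Tβ4 differences from the 3 groups thus also hold microglia levels below control in the NP24 and Tβ10 libraries. Of 6 astrocyte markers, 5 were above 0 and 1, Slc1a2, was called. Their sums were 3743 to 4620.0 in controls, 4588 to 4995 with NP24 and 4172 to 5386 with Tβ10. In Tβ4 libraries 1 to 4 the sums were 6598, 5069, 6213 and 6082. Of 6 oligodendrocyte progenitor markers, 6 were above 0 and 0 were called. Of 3 tested endothelial markers, 3 were above 0 and 0 were called. The sums of that list were 102 to 170 in controls, 38.0 to 118 with NP24 and 37.7 to 133 with Tβ10. In Tβ4 libraries 1 to 4 they were 472, 129, 73.1 and 116, and Cldn5 was at 0 in 12 libraries. Of 8 neuron markers, 1 was above 0 and 0 were called, with sums of 72130 to 80259 in controls, 84271 to 89648 with NP24, 78586 to 95750 with Tβ10 and 61415 to 85192 with Tβ4. The part of these cells in the cell cycle differences was not tested.

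Mitochondrial ribosomal RNA took 24.3%, 8.25%, 15.5% and 13.2% of reads in Tβ4 libraries 1 to 4. Libraries 1 and 3 lay above all controls, library 4 inside the control range and library 2 below it. With that share as a covariate, 0 of the 51 genes were called in any of the 6 comparisons. The share itself differed by group, with NP24 (5.98% to 8.12%) wholly below control (9.32% to 14.2%). This fit therefore cannot fully tell the share apart from the groups. Over all genes, the calls against the 3 groups together were then 2 higher and 1 lower, from 309 and 84, and none was made in the 3 comparisons with control. Against the 3 groups, 43 of 51 genes stayed above 0 with the covariate, with a median of 0.26, and the Tβ4 difference of Mki67 was 0.52 (adjusted p = 0.233 in limma) and that of Top2a 0.36 (adjusted p = 0.479).

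**Figure D5:**
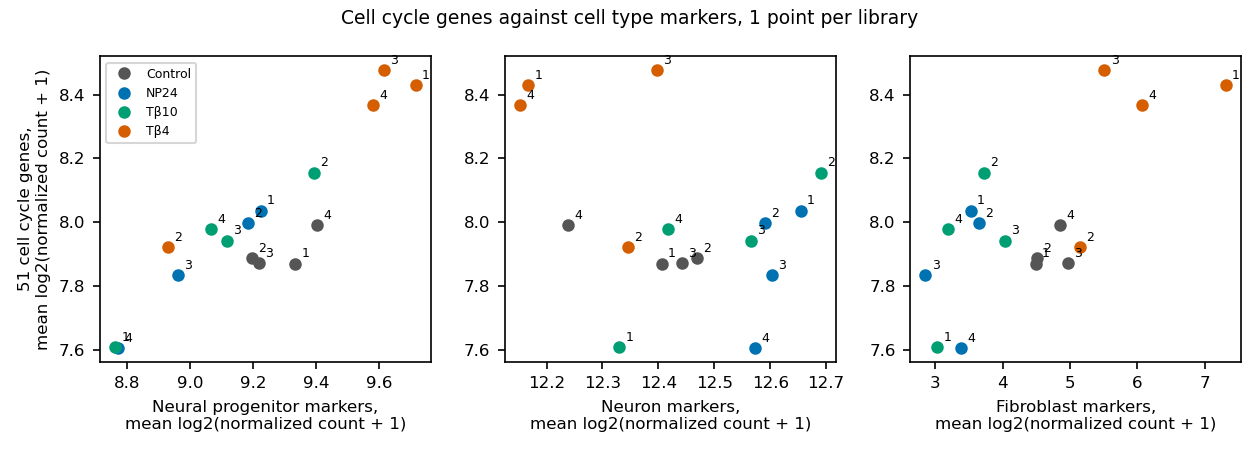
Mean log2 level of the 51 cell cycle genes against the mean log2 level of markers of neural progenitors, neurons and fibroblasts, 1 numbered point per library. Tβ4 libraries 1, 3 and 4 stand at the top of all panels and at the right of the progenitor and fibroblast panels, and Tβ4 library 2 lies among the other groups in the progenitor and neuron panels.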

How the data were processed

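Total RNA of 16 libraries, 4 per group, was sequenced after preparation with a SMARTer stranded total RNA kit, per the labels. The build was GRCm38, and FastQC, HISAT, HISAT2, featureCounts and DESeq2 are named in the submitters' processing notes; their versions and strand setting are not given in the sources used here. The deposited library values are signal, gene counts divided by 1 size factor per library, and every nonzero value was a whole multiple of that factor's step at a tolerance of 0.01 reads (100%). The authors' deposited table also holds log2 fold changes, a score (the test statistic) and p-values. Read counts were recovered for edgeR 4.0.16 and DESeq2 1.42.0.

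The main test was limma-trend (limma 3.58.1, R 4.3.3) on log2(value + 1) for genes reaching 10 normalized counts in 4 or more of the fitted libraries, with Benjamini-Hochberg adjustment over all of them within a comparison, threshold 0.05. Adjustment did not cover the 6 comparisons together. Each peptide was compared with control in a fit of 8 libraries, and Tβ4 with NP24, with Tβ10 and with the mean of the other groups in a fit of 16. Fold changes understate those of low genes. The fits were also run on simulated counts that gave every gene the same spread and had no outlying library. That run cannot tell how the fits handle a library such as Tβ4 library 2. The members, their divisions and the other lists were chosen with earlier results of these data known. Library values are given for genes called in any comparison, the 2 smallest p-values of each, the 2 highest levels per kilobase of each division, and genes with all 4 Tβ4 libraries beyond the other 12; of other cell cycle genes, those called are named, at most 6 a list. Exon lengths and overlaps came from GENCODE M21. Same-numbered libraries of different groups did not deviate together, so replicate numbers were not treated as pairs. Summed over genes, counting error is small beside the spread between libraries: any pair of same-group libraries gave chi-square over degrees of freedom of 9.47 or more. Genes with many reads weigh most in that sum. For genes with few reads, such as Cdc6, counting error was not measured apart.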

Additional observations from a re-analysis of the deposited data

Results flagged for a closer look

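In 3 of 72 sets of 4 libraries checked, 1 library stood far from the other 3, and chance gives such a gap in about 1 set of 20. Mcm7 in Tβ10 library 1 was at 487 normalized counts, where the other Tβ10 libraries were at 635 to 657. The mean log2 level of the 6 G1 genes in Tβ4 library 2 was 8.22, where the other Tβ4 libraries were at 8.65 to 8.71. The mean log2 level of the 3 transcription factors in Tβ10 library 4 was 7.42, where the other Tβ10 libraries were at 7.24 to 7.25.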

How the results depend on the processing

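Of the 14 genes given with library values, 4 changed direction against the 3 groups together, none of them called there. Mcm7 (0.05) was at -0.084 with library size scaling, -0.24 with the mitochondrial share as covariate, and -0.048 to 0.20 with 1 library left out. Gins2 (0.10) was at -0.04 with library size scaling and -0.0024 with the covariate, and with the covariate Nusap1 (0.26) was at -0.0053 and Cdk4 (0.16) at -0.18. Members called moved as follows. With NP24 against control, 1 became 2 with DESeq2, which added Mcm2, a fall. The count became 0 with the mitochondrial share as covariate, an alternative chosen after seeing the data, and was 0 to 1 with 1 library left out. With Tβ4 against control, 0 became 2 with DESeq2 and was 0 to 12 with 1 library left out. Against NP24, 2 became 6 with DESeq2 and 0 with TMM scaling, library size scaling, no filter, the replicate block, the 8 libraries alone or the covariate, and was 0 to 14 with 1 library left out. Against Tβ10, 0 became 5 with DESeq2 and was 0 to 8 with 1 left out. Against the 3 groups together, 4 became 8 with edgeR, 11 with DESeq2, 1 with no filter, 1 with the replicate block, and 0 with library size scaling or the covariate, and was 0 to 18 with 1 left out. In each Tβ4 comparison the highest count came without Tβ4 library 2. DESeq2 also called more of all genes than limma. With NP24 against control it called 566 higher and 612 lower, from 253 and 319. For Tβ4 against NP24 it called 922 and 250, from 400 and 107, and against Tβ10 609 and 204, from 254 and 72.

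The replication less mitosis median was -0.10, -0.08, -0.05, -0.03, -0.06 and -0.04 in the 6 comparisons. With the covariate it was -0.040 for NP24, -0.15 for Tβ10 and -0.12 for Tβ4 against control, -0.10 for Tβ4 against NP24 and -0.11 against the 3 groups. With 1 library left out it ranged from -0.21 to 0.0041 for NP24, -0.17 to -0.060 for Tβ10, -0.17 to -0.064 for Tβ4, -0.06 to 0.03 against NP24, -0.054 to 0.023 against Tβ10 and -0.12 to -0.00015 against the 3 groups, so its sign turned in some. The causes were not tested.

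Library size scaling put the median of all genes at -0.13 against the 3 groups, from 0.01, where 46 of 51 members stayed above 0 with a median of 0.26 and calls over all genes were 192 higher and 441 lower, beside 309 and 84. Mki67 then missed the threshold (adjusted p = 0.0514). Mki67 passed in 21 of 25 alternatives in that comparison (adjusted p 0.000157 to 0.233), Top2a in 18, Cenpf in 13 and Smc4 in 12. Deviations of same-numbered libraries correlated at -0.30 to 0.11 over 24 pairs, and 2 of 16 libraries matched best a library of their own number.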
